A study of Mus musculus with 3 samples.

Results

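The 32 genes described here form the interferon response and antigen presentation module of mouse skin. They were chosen by symbol, and all 32 were found among the 28693 genes of the deposited lists. At least 1 transcript molecule was counted for 31 of them in the NP library and for all 32 in the dpc16 and dpp42 libraries. Ciita was the member without one in NP. The members comprise 4 regulators of the interferon signal (Irf1, Irf7, Irf9, Stat2), 12 effectors (Gbp2, Gbp3, Gbp7, Ifi35, Ifit1, Ifit2, Ifit3, Ifitm3, Isg15, Bst2, Rsad2, Oasl2), 3 immunoproteasome subunits (Psmb8, Psmb9, Psmb10), 3 peptide-loading genes (Tap1, Tap2, Tapbp), 3 MHC class I genes (B2m, H2-K1, H2-D1) and 7 genes of the MHC class II route (Ciita, H2-Aa, H2-Ab1, H2-Eb1, H2-DMa, Cd74, Ctss).

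Cells bind type I or type II interferon at surface receptors, and JAK kinases then activate STAT proteins. A complex that contains STAT2 and IRF9 binds the interferon-stimulated response element (ISRE), and the gamma-activated sequence (GAS) is another interferon-responsive element, also found upstream of Irf1. The genes switched on include antiviral effectors and the machinery that cuts proteins into peptides, moves them into the endoplasmic reticulum and shows them on MHC class I, which nearly all nucleated cells carry. MHC class II is made chiefly by dendritic cells, Langerhans cells and macrophages under control of CIITA, the class II master regulator. Keratinocytes and endothelial cells of skin can gain class II under interferon gamma.

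Each group was a single library of dermal cells from abdominal skin of C57BL/6 mice, 8 to 12 weeks old, of the genotype Col1a2creERT2; R26H2B EGFP, profiled by droplet single-cell RNA sequencing. The dpc16 library came from day 16 of gestation, the dpp42 library from day 42 after birth, and the NP library from the non-pregnant state. All groups carried the tamoxifen-activated Cre driven by Col1a2, a collagen gene of fibroblasts, and had tamoxifen, dpc16 and dpp42 during pregnancy and NP for 3 days with harvest 48 days later. The number of mice in a library is not stated, and skin was held 30 min in 0.25% trypsin, so the dissociation is part of every value. With 1 library per group no test between groups was possible: differences below compare 3 libraries, their intervals cover counting error only, and mice, batch and stage cannot be told apart.

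After filtering, 1289 cells of NP, 3652 of dpc16 and 1081 of dpp42 remained, with medians of 3119, 4300.5 and 3252 UMIs (unique molecular identifiers, each standing for 1 captured transcript). Marker-named classes were fibroblast-like (112 cells in NP, 1153 in dpc16, 122 in dpp42), endothelium-like (60, 268 and 122), keratinocyte-like (895, 1243 and 604) and immune-like (21, 162 and 15). Cells of other types (183, 611 and 200) and unplaced cells (18, 215 and 18) were in none of these classes. The unplaced cells were cluster 3, which scored highest for keratinocyte markers but was led by the haemoglobin gene Hbb-bs. Keratinocyte-like cells were numerous although the preparation is labelled as dermal. Clusters were built without the members and their related genes. Cluster 31, macrophage-like and led by Ccl8 and complement genes such as C1qb, consisted of 63 cells, all from dpc16. Cell barcodes shared between libraries numbered 6 for dpc16 and NP, 1 for dpp42 and NP, and 4 for dpp42 and dpc16. Levels are given as CPM, UMIs per 1000000 UMIs of the class in that library, with exact Poisson 95% intervals, and a ratio is between CPMs of 1 gene. A gene was measured in a comparison with at least 10 CPM in 1 library and at least 20 UMIs over both, and is called higher or lower where the ratio was at least 1.5-fold with an interval that excludes 1. Comparisons of classes within a library used the same limits. A gene can be measured through its high side alone, so counts of called genes partly follow from this filter.

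Promoter windows of 300 bases around the transcription start, taken from RefSeq on GRCm38.p6, were found for 28 members as 34 windows. The members without a window are Tap2, Ciita, Cd74 and H2-Ab1. An ISRE-type motif, GAAA followed after any 2 bases by GAAA again and searched on both strands, occurred in windows of 12 members (B2m, Bst2, Ctss, Gbp2, Gbp3, Gbp7, Ifit1, Ifit3, Ifitm3, Isg15, Rsad2 and Stat2). That was 35.3% of the members' windows and 3.44% of all 32851 promoter windows of equal length. TTCNNNGAA, a GAS-type motif that reads as the same pattern on both strands, occurred for 7 members (Bst2, Gbp7, Ifi35, Ifit2, Ifitm3, Irf1 and Psmb8), in 20.6% of the members' windows and 8.30% of all. CTGATTGG, the Y box-type motif of MHC promoters, occurred for 6 members (H2-Aa, H2-D1, H2-Eb1, H2-K1, Psmb9 and Tap1), in 20.6% and 4.10%. Its 7 matches lie at 5 places in the genome, since Psmb9 and Tap1 share 1 in their overlapping windows and both H2-K1 windows hold the same one. Neighbouring matches could overlap each other, and in Ifitm3 and Bst2 an ISRE-type and a GAS-type match overlapped as well. A match is a description of letters and was not tested as a binding site.

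The windows below belong to members whose levels carry the results. They are effectors and Irf1 of blood vessels, class I genes and the immunoproteasome gene Psmb9 of fibroblasts, and a class II gene. Capitals mark ISRE-type letters in Isg15, Ifit1, Rsad2 and B2m, the GAS-type letters in Irf1, and Y box-type letters in H2-D1, H2-Eb1 and Psmb9. Each sequence runs 5′ to 3′ on the strand of its gene.
Isg15 (chr4:156200769-156201068, minus strand): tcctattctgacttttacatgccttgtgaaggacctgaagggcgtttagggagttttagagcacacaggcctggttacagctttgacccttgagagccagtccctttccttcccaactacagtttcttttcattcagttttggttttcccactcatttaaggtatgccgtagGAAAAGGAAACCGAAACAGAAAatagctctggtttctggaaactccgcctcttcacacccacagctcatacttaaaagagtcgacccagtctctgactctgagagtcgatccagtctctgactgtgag
Ifit1 (chr19:34640639-34640938, plus strand): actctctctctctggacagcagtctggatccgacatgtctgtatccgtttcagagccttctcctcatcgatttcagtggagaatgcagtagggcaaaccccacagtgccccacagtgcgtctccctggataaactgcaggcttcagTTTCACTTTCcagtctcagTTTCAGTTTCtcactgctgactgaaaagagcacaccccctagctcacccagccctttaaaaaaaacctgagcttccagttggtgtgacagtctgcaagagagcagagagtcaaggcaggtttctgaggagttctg
Rsad2 (chr12:26456403-26456702, minus strand): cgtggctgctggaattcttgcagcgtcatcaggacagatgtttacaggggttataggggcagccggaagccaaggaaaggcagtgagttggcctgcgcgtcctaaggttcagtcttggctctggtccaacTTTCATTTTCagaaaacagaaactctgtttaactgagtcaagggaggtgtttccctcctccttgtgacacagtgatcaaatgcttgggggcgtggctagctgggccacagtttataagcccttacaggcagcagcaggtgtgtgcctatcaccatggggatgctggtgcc
Irf1 (chr11:53769764-53770063, plus strand): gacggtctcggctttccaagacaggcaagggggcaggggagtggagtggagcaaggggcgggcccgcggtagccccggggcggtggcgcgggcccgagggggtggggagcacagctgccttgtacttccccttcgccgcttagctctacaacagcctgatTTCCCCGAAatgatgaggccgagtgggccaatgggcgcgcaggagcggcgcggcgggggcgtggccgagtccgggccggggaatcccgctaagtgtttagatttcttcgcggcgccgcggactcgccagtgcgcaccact
B2m (chr2:122147437-122147736, plus strand): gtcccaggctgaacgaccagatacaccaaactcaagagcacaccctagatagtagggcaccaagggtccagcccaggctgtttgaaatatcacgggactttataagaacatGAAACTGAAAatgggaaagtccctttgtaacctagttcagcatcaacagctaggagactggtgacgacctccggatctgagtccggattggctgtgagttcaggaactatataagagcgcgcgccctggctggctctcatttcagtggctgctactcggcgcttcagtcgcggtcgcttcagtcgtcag
H2-D1 (chr17:35262844-35263143, plus strand): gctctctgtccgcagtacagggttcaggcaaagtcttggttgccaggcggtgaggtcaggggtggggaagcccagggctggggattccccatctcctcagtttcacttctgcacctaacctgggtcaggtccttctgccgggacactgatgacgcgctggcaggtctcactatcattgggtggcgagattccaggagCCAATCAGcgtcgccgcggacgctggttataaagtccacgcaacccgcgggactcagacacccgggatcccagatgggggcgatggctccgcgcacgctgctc
Psmb9 (chr17:34187281-34187580, minus strand): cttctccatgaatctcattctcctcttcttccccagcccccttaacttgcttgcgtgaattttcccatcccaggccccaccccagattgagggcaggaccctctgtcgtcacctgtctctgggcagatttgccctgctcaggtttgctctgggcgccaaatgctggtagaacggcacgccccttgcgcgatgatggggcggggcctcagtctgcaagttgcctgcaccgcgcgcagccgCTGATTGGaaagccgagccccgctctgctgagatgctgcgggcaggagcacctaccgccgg
H2-Eb1 (chr17:34305617-34305916, plus strand): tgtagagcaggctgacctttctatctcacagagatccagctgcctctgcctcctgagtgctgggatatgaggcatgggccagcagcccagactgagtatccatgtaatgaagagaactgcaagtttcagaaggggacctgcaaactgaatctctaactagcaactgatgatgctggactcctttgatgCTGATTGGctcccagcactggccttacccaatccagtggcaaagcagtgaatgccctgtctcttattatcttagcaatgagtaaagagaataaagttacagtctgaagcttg
In Isg15 the 3 matches overlap to form 1 run from -78 to -57 relative to the start site. Those of Ifit1 lie on the opposite strand at -104 to -95 and -85 to -76, that of Rsad2 on the opposite strand at -120 to -111, and that of B2m at -139 to -130. The Irf1 match lies at -90 to -82, H2-D1's at -53 to -46 on the opposite strand, and H2-Eb1's at -62 to -55. Psmb9, whose match lies at -11 to -4, and Tap1 are transcribed away from each other from starts 226 bases apart, and their windows share 275 bases on chromosome 17. In all, 11 members lie on chromosome 17, which holds the mouse MHC.

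In blood vessel cells, a group of interferon effectors and regulators was lower in dpc16 than in NP and higher in dpp42 than in dpc16. Of 24 members measured in blood endothelium-like cells (41 from NP, 127 from dpc16, 89 from dpp42), 11 were lower and 0 higher in dpc16 than in NP, against 10.3% and 5.66% of all measured genes. In dpp42 over dpc16, 12 of 26 were higher and 0 lower, against 13.0% and 8.36% of all genes. In dpp42 over NP only Rsad2 was called among 25, as lower, against 3.44% of genes lower and 2.62% higher. These comparisons share libraries, so a value of dpc16 counts in both of those that use it. The members' median log2 ratio was -0.64 in dpc16 over NP beside -0.14 for all measured genes, 0.66 in dpp42 over dpc16 beside 0.10, and -0.07 in dpp42 over NP beside -0.07.

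Among effectors, Ifit1, which binds foreign RNA that lacks host cap methylation, had 273 CPM in NP cells, 51.0 in dpc16 cells and 310 in dpp42 cells. Its dpc16 level was 0.187 (0.111 to 0.314) times that of NP, and its dpp42 level 6.08 (4.03 to 9.37) times that of dpc16. Isg15, a ubiquitin-like protein attached to other proteins, had 645, 306 and 807 CPM in NP, dpc16 and dpp42. The ratio was 0.475 (0.363 to 0.626) for dpc16 over NP and 2.64 (2.18 to 3.20) for dpp42 over dpc16. For both genes dpc16 was the low library and the intervals of NP and dpp42 overlapped. Rsad2, the antiviral enzyme viperin, had 786, 203 and 430 CPM, and 50.5% of its 95 NP UMIs came from 1 cell. The log2 ratios in this paragraph are those of the whole endothelium-like class, which includes lymphatic cells. Without the cell richest in Rsad2 of each library, its endothelial log2 ratio of dpp42 over NP was -0.14 in place of -0.83, no longer called. Ifit2 with 66.2, 22.3 and 84.0 CPM was called in both dpc16 comparisons, but 1 cell held 6 of its 8 NP UMIs and 1 cell 7 of its 14 dpc16 UMIs. Without the richest cell of each library, its endothelial log2 ratio of dpc16 over NP was -0.25 in place of -1.46, no longer called. Ifit3 with 33.1, 19.1 and 61.4 CPM was called only in dpp42 over dpc16, where it was higher. Oasl2, of the oligoadenylate synthetase-like family, had 82.7, 27.1 and 48.4 CPM and was called only as lower in dpc16 than in NP. The guanylate-binding protein gene Gbp2 had 356, 185 and 297 CPM, lower in dpc16 than in NP and higher in dpp42 than in dpc16. Of its relatives, Gbp7 was higher in dpp42 than in dpc16 (165 and 68.6 CPM), and Gbp3 with 99.2, 74.9 and 116 CPM was not called.

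Of the regulators, 3 of 4 also had their lowest level in dpc16. Irf1, a transcription factor induced by interferon gamma, had 455 CPM in NP, 282 in dpc16 and 585 in dpp42. Irf9, the DNA-binding partner of STAT2, had 132, 39.9 and 103 CPM, and Stat2 had 66.2, 30.3 and 77.5 CPM. Irf1 and Irf9 were lower in dpc16 than in NP, and all of Irf1, Irf9 and Stat2 were higher in dpp42 than in dpc16. Irf7, the amplifier of type I interferon, went the other way without being called, with 49.6, 86.1 and 48.4 CPM. Among peptide-handling genes, Tap1 of the peptide transporter had 124, 52.6 and 100 CPM and the immunoproteasome gene Psmb10 had 116, 51.0 and 100 CPM, both called in both dpc16 comparisons. In the whole endothelium-like class, thinned to 1000 UMIs, Ifit1 had a similar log2 ratio of dpc16 over NP (-2.16 in place of -2.37). It was then no longer called. The Irf1 ratio there (log2 -0.67) was not called after centring on all genes (-0.53), with clusters weighted equally (-0.42) or after thinning (-0.38). Tap2, the partner of Tap1, had 149, 79.7 and 93.7 CPM in blood endothelium-like cells and was lower in dpc16 than in NP only. Psmb8 (190, 226 and 155 CPM), Psmb9 (41.3, 71.8 and 87.2 CPM) and Tapbp (223, 199 and 207 CPM) were not called in any comparison there. The immunoproteasome genes Psmb8, Psmb9 and Psmb10 together were level, with 347, 349 and 342 CPM in NP, dpc16 and dpp42.

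Effectors that were not called in blood endothelium-like cells included Ifitm3, which blocks viral entry, with 4523, 4294 and 3501 CPM in NP, dpc16 and dpp42. Bst2, tetherin, had 306, 378 and 294 CPM. MHC class I was also level there: B2m, H2-K1 and H2-D1 together had 7443 CPM in NP, 7397 in dpc16 and 7696 in dpp42, with overlapping intervals. Each of the 3 class I genes stayed within 1.5-fold among the libraries of these cells.

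Other interferon-stimulated genes, on a list of 50, were counted in the same cells. In dpc16 over NP 31 were measured, of which 15 were lower and 1 higher, against 10.3% and 5.66% of all genes. The last is Ly6e, named after its value was seen. In dpp42 over dpc16 25 of 35 were higher and 0 lower, against 13.0% and 8.36%, and in dpp42 over NP 2 of 34 were higher and 3 lower, against 2.62% and 3.44%. The receptor genes Ifnar1, Ifnar2, Ifngr1 and Ifngr2 were not called in any comparison of these cells.

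**Figure D1:**
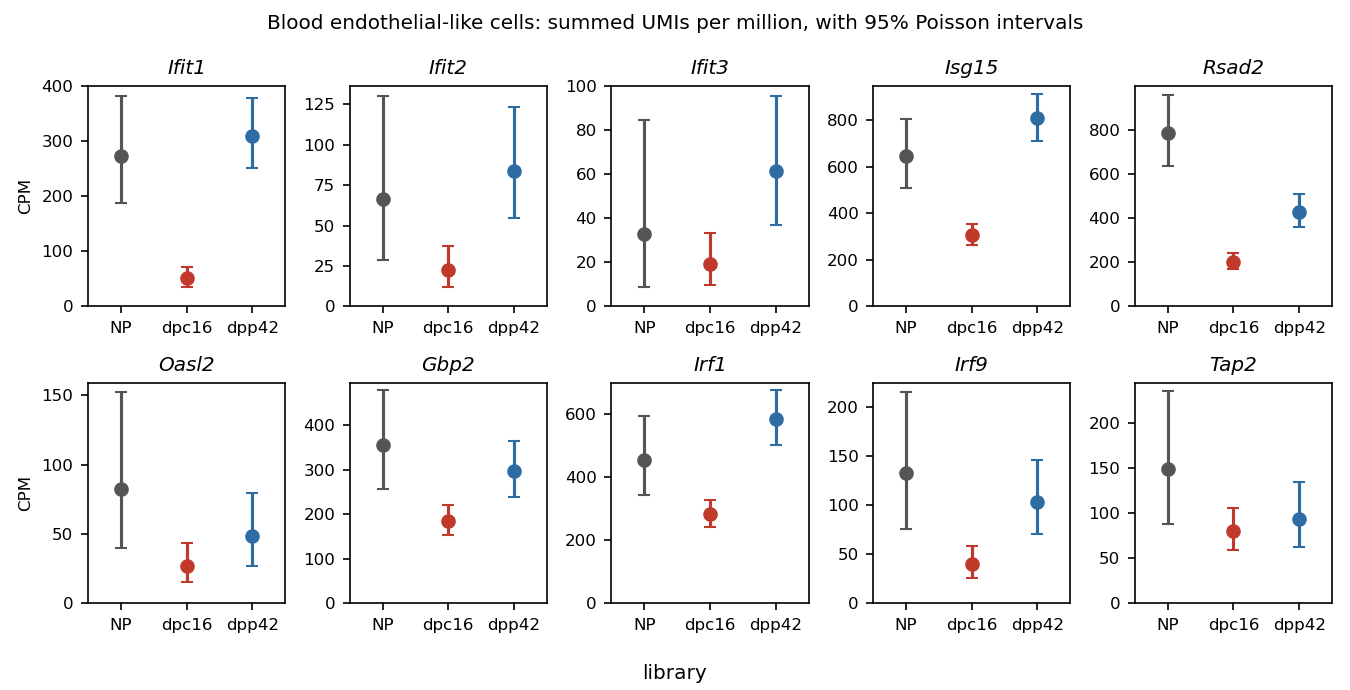
CPM of 10 members in blood endothelium-like cells of NP, dpc16 and dpp42, with exact Poisson 95% intervals as bars. For Ifit1, Isg15, Irf1 and Irf9 the dpc16 point lies below both others, with Ifit1 at 51.0 CPM beside 273 in NP and 310 in dpp42.

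The same UMIs were also counted by cell, which is a second view of these values and not separate evidence. A cell was counted as carrying the response with UMIs from at least 3 of 6 core effector genes (Ifit1, Ifit2, Ifit3, Isg15, Rsad2 and Oasl2). Such cells were 29.3% of blood endothelium-like cells in NP (95% Clopper-Pearson interval 16.1 to 45.5), 14.96% in dpc16 (9.25 to 22.4) and 38.2% in dpp42 (28.1 to 49.1). The interval of NP overlaps both others, while those of dpc16 and dpp42 do not overlap. With every cell thinned to 1000 UMIs and a bar of 2 genes, the shares were 26.8, 10.2 and 26.97%. In keratinocyte-like cells 0.223, 0.0805 and 0% of cells passed the first bar, at median depths of 3029, 4209 and 3191 UMIs against 2450, 4156 and 3101 in blood endothelium-like cells. A single NP cell held 66 of the 228 core UMIs of NP blood endothelium-like cells.

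In lymphatic vessels these effectors had low values, with those of NP limited by its 19 cells. Lymphatic endothelium-like cells (19, 141 and 33 cells) had 14.98, 21.7 and 20.2 CPM of Ifit1 and 74.9, 104 and 87.7 CPM of Isg15, and no UMI of Oasl2 in any library. In NP the upper ends of the intervals were 83.5 CPM for Ifit1, 175 for Isg15 and 55.3 for Oasl2. Of 22 members measured in dpc16 over NP, 1 was higher, Ifitm3 with 4387 CPM in dpc16 and 2846 in NP, and 0 were lower, against 4.59% and 6.06% of all genes. For dpp42 over dpc16, Irf9 and Psmb10 were higher among 23 and 0 were lower, against 9.95% and 7.09%. For dpp42 over NP, 0 of 13 were called, against 5.13% of genes higher and 2.97% lower. Set beside lymphatic cells of the same library, blood endothelium-like cells were higher for Irf1, Gbp2, Ifit1, Isg15 and Rsad2 in all 3 libraries, 5 of the 14 members measured in all. By library 6 of 14, 10 of 28 and 8 of 23 members were higher in blood than in lymphatic cells, beside 18.9% of all genes in NP, 15.1% in dpc16 and 16.5% in dpp42. Some members, such as Rsad2 in dpc16 (203 and 8.14 CPM), were measured through blood cells alone. In NP, Isg15 was 8.61 (3.54 to 27.3) times as high in blood as in lymphatic cells, 2.93 (2.24 to 3.87) times in dpc16 and 9.20 (5.28 to 17.5) times in dpp42. The class II genes H2-Aa, H2-Ab1, H2-Eb1 and Cd74 were lower in blood than in lymphatic cells of dpc16. Whether blood and lymphatic cells differ in their change across libraries was not tested.

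Markers of other cells moved with the libraries in blood endothelium-like cells. Haemoglobin and other erythroid markers summed to 8.27 CPM in NP, 628 in dpc16 and 6692 in dpp42. Keratinocyte markers summed to 3730, 1925 and 1925 CPM. Of 9 pan-immune markers 1, 4 and 2 were detected, at 33.1, 15.9 and 25.8 CPM in sum, with Laptm5, Coro1a and Cd53 at 0 in all 3 libraries. The part of red cell and keratinocyte RNA in the vessel values was not tested. Over the whole endothelium-like class, dpp42 over NP had 0 of 27 higher and 1 lower (Rsad2), against 2.95% and 3.55% of all genes. Called members in the endothelium-like class numbered 13 of 29 in dpc16 over NP, with 2 higher (H2-Aa and H2-Eb1) and 11 lower, against 5.62% and 9.97% of all genes, and 3 of 18, all lower, after thinning cells to 1000 UMIs. For dpp42 over dpc16 they numbered 15 of 29, with 14 higher and 1 lower (Cd74), against 13.9% and 9.99%, and 7 of 22, all higher, after thinning.

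Endothelium-like cells also stood above keratinocyte-like cells in most members measured. Of the 24 members measured in all 3 libraries, 18 were higher than in keratinocyte-like cells in every library. By library 19 of 24 measured members were higher in NP, 26 of 30 in dpc16 and 24 of 28 in dpp42, while the share of all genes higher was 18.9%, 35.1% and 25.3%. Several members were measured only through endothelium-like cells, such as Ifit1 (35.2 and 0.809 CPM) and Rsad2 (97.5 and 1.75 CPM) in dpc16. For these a call as higher was close to fixed by the filter, so the counts describe and do not add support. Tap1 went the other way in dpc16, with 43.2 CPM in endothelium-like and 69.0 in keratinocyte-like cells, a ratio of 0.627 (0.470 to 0.822). It was not called in NP or dpp42, and Psmb9 and H2-K1 were not called in any library. Irf1 was 10.3 (7.51 to 13.9) times as high in endothelium-like as in keratinocyte-like cells of NP, 3.81 (3.26 to 4.43) times in dpc16 and 12.5 (9.94 to 15.7) times in dpp42. B2m was 1.86 (1.74 to 1.99), 1.70 (1.65 to 1.75) and 1.71 (1.63 to 1.79) times as high. The ratio was thus above 3 for Irf1 and under 2 for B2m in every library. Over fibroblast-like cells, 8 of 19 members were higher in every library (Irf9, Gbp7, Ifit1, Ifitm3, Isg15, Bst2, Rsad2 and Tap2). By library they numbered 10 of 19, 21 of 30 and 14 of 26, against 19.3, 34.2 and 22.1% of all genes, with the same limit from the filter.

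**Figure D2:**
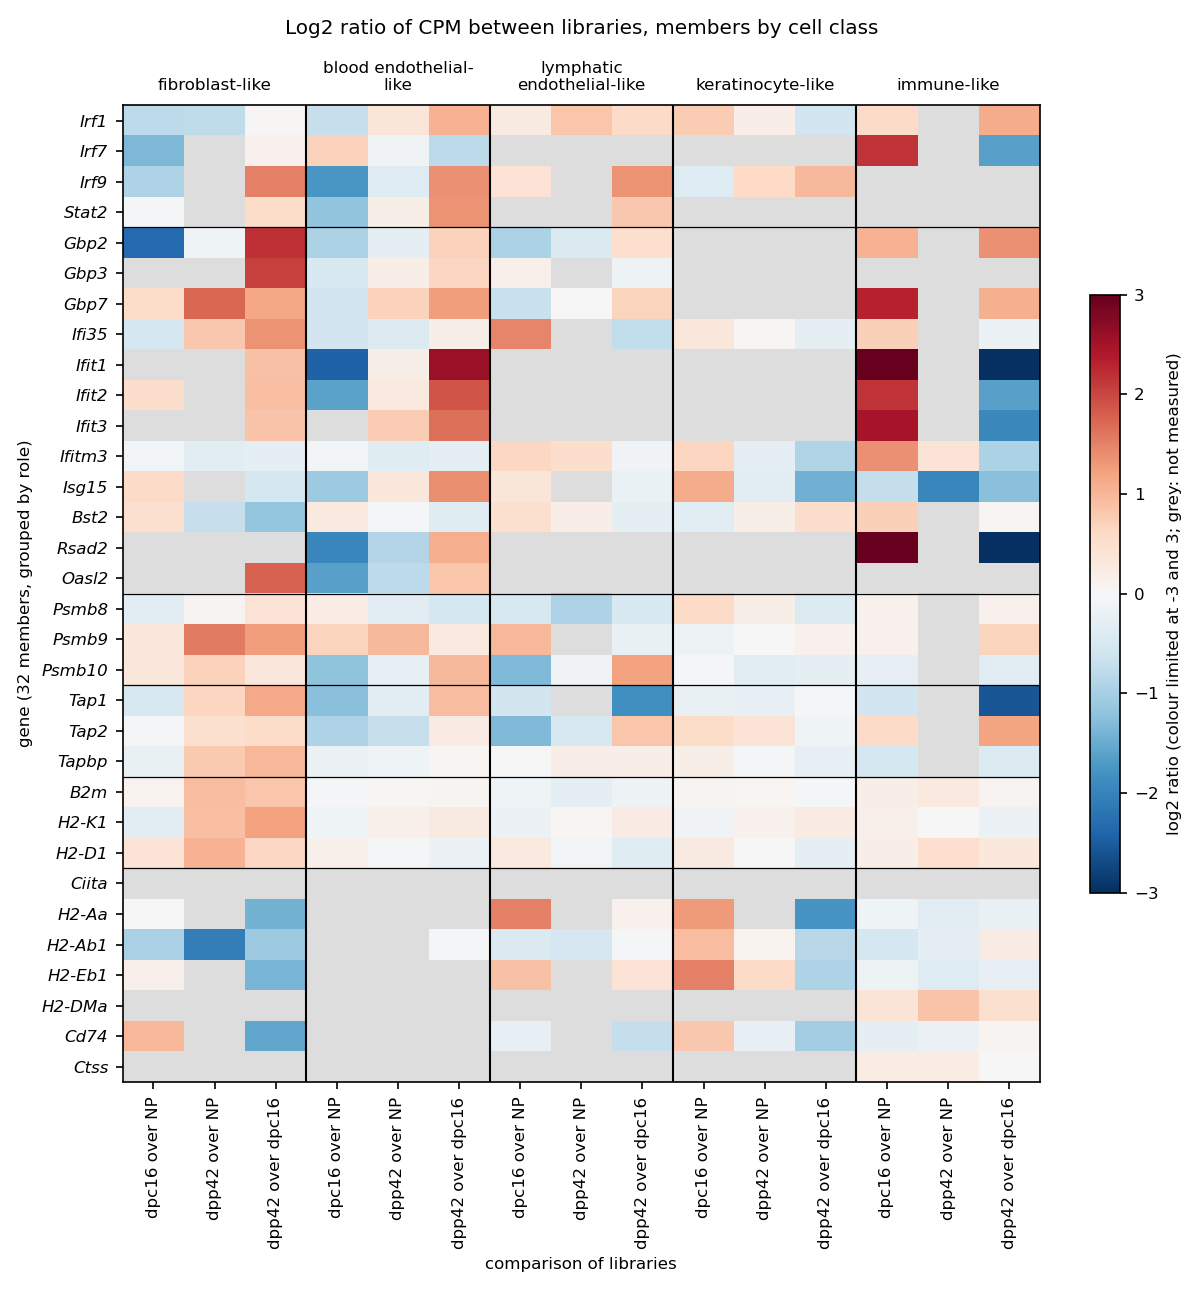
Log2 ratio of CPM for the 32 members (rows) in 5 classes and 3 comparisons (columns), with colour limited to 3 either way and grey where a member was not measured. The blood endothelium-like columns run low in dpc16 over NP and high in dpp42 over dpc16, and the fibroblast-like columns of dpp42 are high for B2m, H2-K1, H2-D1 and Tapbp.

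Fibroblast-like cells differed in another set of members: in dpp42 they had more MHC class I and Tapbp transcripts than in NP or dpc16. Ifit and Rsad2 transcripts were scarce in all 3 libraries. B2m, the light chain of every class I molecule, had 3262, 3533 and 6242 CPM in NP, dpc16 and dpp42. The dpp42 level was 1.91 (1.78 to 2.06) times that of NP and 1.77 (1.69 to 1.85) times that of dpc16. H2-K1, a class I heavy chain, had 899, 729 and 1671 CPM, and its dpp42 level was 1.86 (1.61 to 2.15) and 2.29 (2.09 to 2.51) times those of NP and dpc16. H2-D1, the other classical heavy chain measured, had 1076, 1441 and 2210 CPM, with dpp42 at 2.05 (1.80 to 2.34) and 1.53 (1.42 to 1.66) times NP and dpc16. For all of these genes dpp42 was the high library and its interval overlapped neither of the others. Tapbp, tapasin, which holds class I molecules at the peptide transporter, had 152, 133 and 264 CPM, higher in dpp42 than in both. Of the other peptide-loading genes, Tap1 with 27.4, 20.8 and 44.1 CPM was higher in dpp42 than in dpc16 only. Tap2 with 33.5, 33.4 and 47.2 CPM was not called. Psmb9 of the immunoproteasome had 21.3, 28.5 and 66.1 CPM, from 7, 145 and 21 UMIs, with dpp42 at 3.10 (1.27 to 8.62) times NP. H2 genes have near-identical relatives in the MHC, so the split of reads between them is uncertain.

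Counted over the module, 6 of 16 members measured were higher in dpp42 than in NP fibroblast-like cells (Gbp7, Psmb9, Tapbp, B2m, H2-K1 and H2-D1) and 2 were lower (Irf1 and H2-Ab1), against 8.24% and 6.33% of all genes. Against dpc16, 16 of 28 were called, 12 higher in dpp42 (Irf9, Gbp2, Gbp3, Gbp7, Ifi35, Oasl2, Psmb9, Tap1, Tapbp, B2m, H2-K1 and H2-D1) and 4 lower (Bst2, H2-Aa, H2-Eb1 and Cd74), beside 26.9% of all genes called. Of those 8278 measured genes 1818 were higher and 4.94% were lower. Among the called members, Gbp3 and Oasl2 were under 10 CPM in dpc16, and H2-Aa and H2-Eb1 in dpp42. Each of these was measured only through the library where it is high. In dpc16 over NP 1 of 24 was higher (Cd74) and 3 were lower (Irf1, Gbp2 and H2-Ab1), beside 6.59% and 18.0%. The Cd74 ratio changed sign at Leiden resolution 2, to a log2 ratio of -0.13. The median log2 ratio of the members was 0.67 in dpp42 over NP beside 0.06 for all genes, 0.72 in dpp42 over dpc16 beside 0.45, and -0.06 in dpc16 over NP beside -0.30. After subtracting those all-gene medians the split became 5 higher and 6 lower in dpp42 over dpc16, and 3 higher and 1 lower in dpc16 over NP. B2m and H2-D1 were then no longer called in dpp42 over dpc16, with log2 ratios of 0.37 and 0.17. The split of dpp42 over NP stayed at 6 higher and 2 lower. With cells thinned to 1000 UMIs, 4 of 8 measured members were higher and 0 lower in dpp42 over NP, and 7 of 21 were higher and 0 lower in dpp42 over dpc16. With clusters weighted equally, dpc16 over NP had 4 higher and 8 lower.

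The clusters of fibroblast-like cells differed in class I level and in their share of each library. Of 1153 dpc16 cells 433, 305 and 224 were in clusters 19, 20 and 25. Cluster 25, led by Gpx3, Ctla2a and Dpep1, had 2274 CPM of B2m in dpc16, below the class-wide value, with 3 cells from NP and 0 from dpp42. In cluster 7, led by Igfbp2, Mmp3 and F13a1, B2m had 5032, 4811 and 7057 CPM in NP, dpc16 and dpp42. Cluster 20, led by Coch, Tnmd and Fmod, had 2302, 4273 and 7436 CPM, and cluster 6, led by Tnfaip6, Ifi205 and Ccl7, had 3560 CPM in NP and 6048 in dpp42, with only 1 dpc16 cell. In cluster 26, led by Slc26a7, Crabp1 and Serpine2, the values were 1423, 923 and 1228 CPM, with dpp42 not above NP, and H2-D1 had 774, 485 and 327 CPM. Cluster 19, led by Klk1b24 and other kallikrein genes, had 3216, 3455 and 4344 CPM of B2m, the last from 11 cells, and the intervals of NP and dpp42 overlapped. With clusters weighted equally, the log2 ratio of dpp42 over dpc16 was 0.58 for B2m and 0.34 for H2-D1, and neither was called. The dpp42 values rest on 122 cells, of which 57, 26 and 18 were in clusters 7, 20 and 6.

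**Figure D3:**
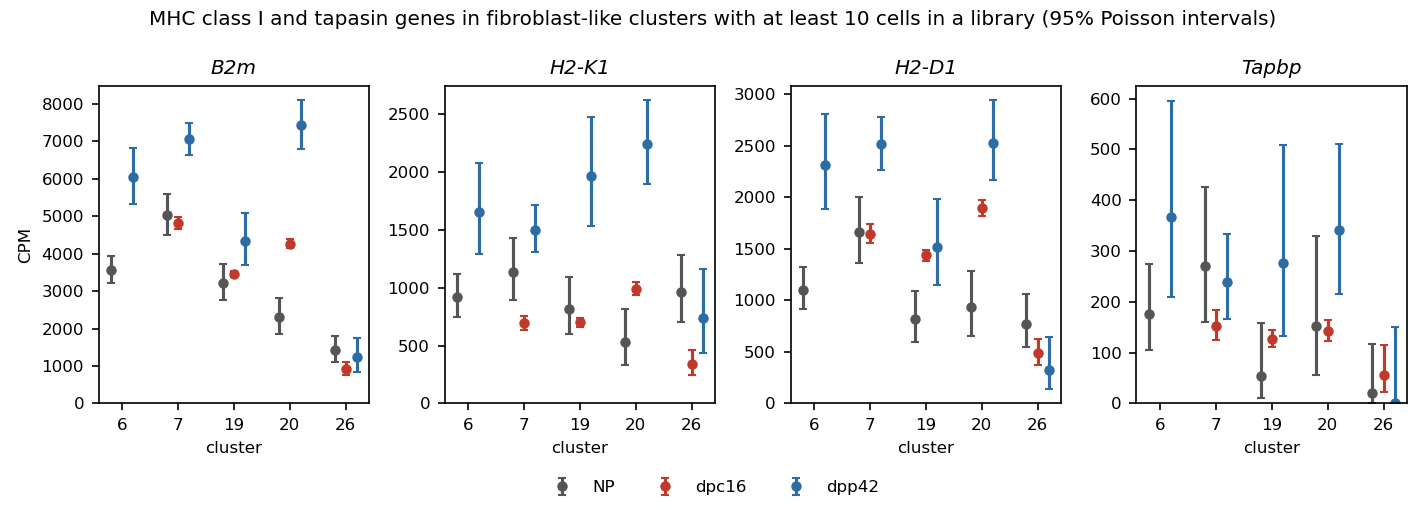
CPM of B2m, H2-K1, H2-D1 and Tapbp in fibroblast-like clusters with at least 10 cells of a library, with exact Poisson 95% intervals. In clusters 6, 7 and 20 the dpp42 point of B2m (6048, 7057 and 7436 CPM) lies above the NP point, and in cluster 26 the intervals of NP and dpp42 overlap.

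Gbp2 UMIs of NP and dpp42 fibroblast-like cells lay mostly in cluster 6. The gene had 280 CPM in NP, 55.8 in dpc16 and 255 in dpp42 fibroblast-like cells, with dpc16 at 0.199 (0.157 to 0.254) times NP and dpp42 at 4.57 (3.52 to 5.87) times dpc16. Within cluster 6, of which Gbp2 was a leading gene, its levels were 649 CPM in 38 NP cells and 1260 CPM in 18 dpp42 cells, and the single dpc16 cell held 3 UMIs. Cluster 6 thus held 70 of the 92 NP UMIs and 55 of the 81 dpp42 UMIs. In cluster 7 the levels were 44.9, 26.3 and 75.4 CPM in NP, dpc16 and dpp42. Without cluster 6 the log2 ratio was -0.88 in dpc16 over NP, in place of -2.33, and 0.80 in dpp42 over dpc16, both still called.

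Irf1 was high in NP fibroblast-like cells, with 320 CPM beside 187 in dpc16 and 189 in dpp42. The ratio was 0.584 (0.477 to 0.721) for dpc16 over NP and 0.590 (0.422 to 0.818) for dpp42 over NP. Neither was called with clusters weighted equally (log2 ratios -0.38 and -0.23) or with cells thinned to 1000 UMIs (-0.31 and -0.18), and the dpc16 one was not called without cluster 6 either (-0.53). Ifitm3 had 1598, 1515 and 1256 CPM and was not called in any comparison. Bst2, with 67.1, 95.3 and 40.9 CPM, was lower in dpp42 than in dpc16. Ifit1, Ifit2, Ifit3, Rsad2 and Oasl2 were at or below 22.03 CPM in all 3 libraries, from 0 to 55 UMIs (Oasl2 was higher in dpp42 than in dpc16, from 7 UMIs), and Isg15 had 21.3, 33.8 and 22.03 CPM. Irf7 had 24.4, 10.0 and 9.44 CPM, Stat2 15.2, 16.1 and 22.03 CPM, Psmb8 122, 98.6 and 129 CPM, and none of them was called.

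Other genes of the same routes were counted in fibroblast-like cells. Of 15 other MHC and processing genes measured in dpp42 over NP, the class I relatives H2-Q6, H2-Q7 and H2-T23 were higher and the proteasome activator gene Psme2 was lower. H2-Q6 had 94.4 CPM in dpp42 and 27.4 in NP. Against dpc16, 7 of 24 were higher and 0 lower, not far from the share among all genes (1818 of 8278 higher and 409 lower). They include Nlrc5, the class I counterpart of CIITA, with 15.7 CPM from 5 UMIs in dpp42 and 4.32 CPM from 22 UMIs in dpc16. The constitutive proteasome genes Psmb5, Psmb6 and Psmb7, whose products the immunoproteasome subunits replace, were not called in any comparison: Psmb5 had 104 CPM in each library. Of other interferon-stimulated genes, 10 of 31 were higher in dpp42 than in dpc16 and 2 were lower (Ifi27l2a and Cxcl10), to be read against the same 1818 and 409 of 8278 genes. Gbp5, with 34.6 CPM from 11 UMIs in dpp42 and 2.36 CPM from 12 UMIs in dpc16, had the highest ratio of those lists, and Irgm2 followed with 47.2 and 8.25 CPM. Gbp5, Irgm2 and Nlrc5 were under 10 CPM in dpc16, so they were measured only through dpp42, where they are high. Of the receptor genes only Ifngr1 was called, with 176 CPM in dpp42 and 113 in NP.

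Markers of other cell types in fibroblast-like cells differed between libraries as well. Pan-immune markers summed to 15.2, 28.1 and 47.2 CPM in NP, dpc16 and dpp42, with 4, 9 and 6 of 9 detected, and Laptm5 and Cd53 at 0 in NP and dpp42. Keratinocyte markers summed to 4924, 3144 and 5184 CPM, with 13 of 13 detected in each library. Without cells that held 3 or more immune-marker UMIs, the dpp42 over NP count was 6 higher and 1 lower of 15 members. Keratinocyte-like cells had 2604, 2758 and 2709 CPM of B2m over the class, and 5376, 4609 and 4636 CPM in their cluster 11. The part of keratinocyte RNA in the class I values was not tested.

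In keratinocyte-like cells the class-wide sum of class I was level among the libraries, and the called members were mostly higher in dpc16. B2m, H2-K1 and H2-D1 together had 4451, 4699 and 4650 CPM in keratinocyte-like cells of NP, dpc16 and dpp42. Single clusters were not all level. B2m had 516, 930 and 750 CPM in cluster 2, led by Nppc, and 2221, 1585 and 2404 CPM in cluster 14, led by Krt77. Of 19 members measured in dpc16 over NP, 7 were higher (Irf1, Ifitm3, Isg15, H2-Aa, H2-Ab1, H2-Eb1 and Cd74) and 0 lower, against 8.40% and 22.7% of all genes. Of 18 in dpp42 over NP, Irf9 alone was called, with 28.8 CPM in dpp42 and 19.03 in NP, against 4.53% of genes higher and 2.87% lower. In dpp42 over dpc16 1 of 19 was higher (Irf9) and 6 were lower (the 7 above without Irf1), against 24.1% and 8.34%. The members' median log2 ratio was 0.33 in dpc16 over NP beside -0.19 for all genes, 0.05 in dpp42 over NP beside 0.00, and -0.27 in dpp42 over dpc16 beside 0.22.

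Isg15 had 35.5 CPM in NP, 76.4 in dpc16 and 27.8 in dpp42 keratinocyte-like cells, with dpc16 at 2.15 (1.80 to 2.60) times NP and dpp42 at 0.364 (0.289 to 0.455) times dpc16. The keratinocyte clusters were far apart in it: cluster 5, led by Defb6, Cst6 and Krt79, had 161, 240 and 132 CPM, and cluster 14, led by Krt77 and Krt10, had 33.7, 11.8 and 10.3 CPM. Cluster 5 made up 100 of 895 keratinocyte-like cells in NP, 408 of 1243 in dpc16 and 88 of 604 in dpp42. With clusters weighted equally the log2 ratio of dpc16 over NP was 0.24 in place of 1.10, and it was not called. Irf1, at 32.7, 55.7 and 37.5 CPM over the class, had 158, 346 and 151 CPM in cluster 2, led by Nppc, Sgk1 and Lgr5. Cluster 5, by contrast, had 96.4, 64.2 and 91.6 CPM of Irf1, with dpc16 lowest. The class-wide Irf1 ratio of dpc16 over NP, 1.70 (1.403 to 2.08), was not called with at most 5% mitochondrial UMIs (log2 ratio 0.32), with clusters weighted equally (0.50) or after thinning (0.16). Ifitm3 had 383, 596 and 317 CPM, and its dpc16 over NP call too was lost with clusters weighted equally (log2 ratio 0.24). Psmb8 had 69.3, 104 and 77.8 CPM over the class and was not called. Related genes of the keratinocyte-like class included Socs1, a brake on JAK signalling, which was higher in dpc16 (141 UMIs) than in NP (34 UMIs) at a ratio of 2.38 (1.63 to 3.57), whereas Nlrc5 was lower in dpc16 (23.6 CPM) than in NP (45.6 CPM).

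**Figure D4:**
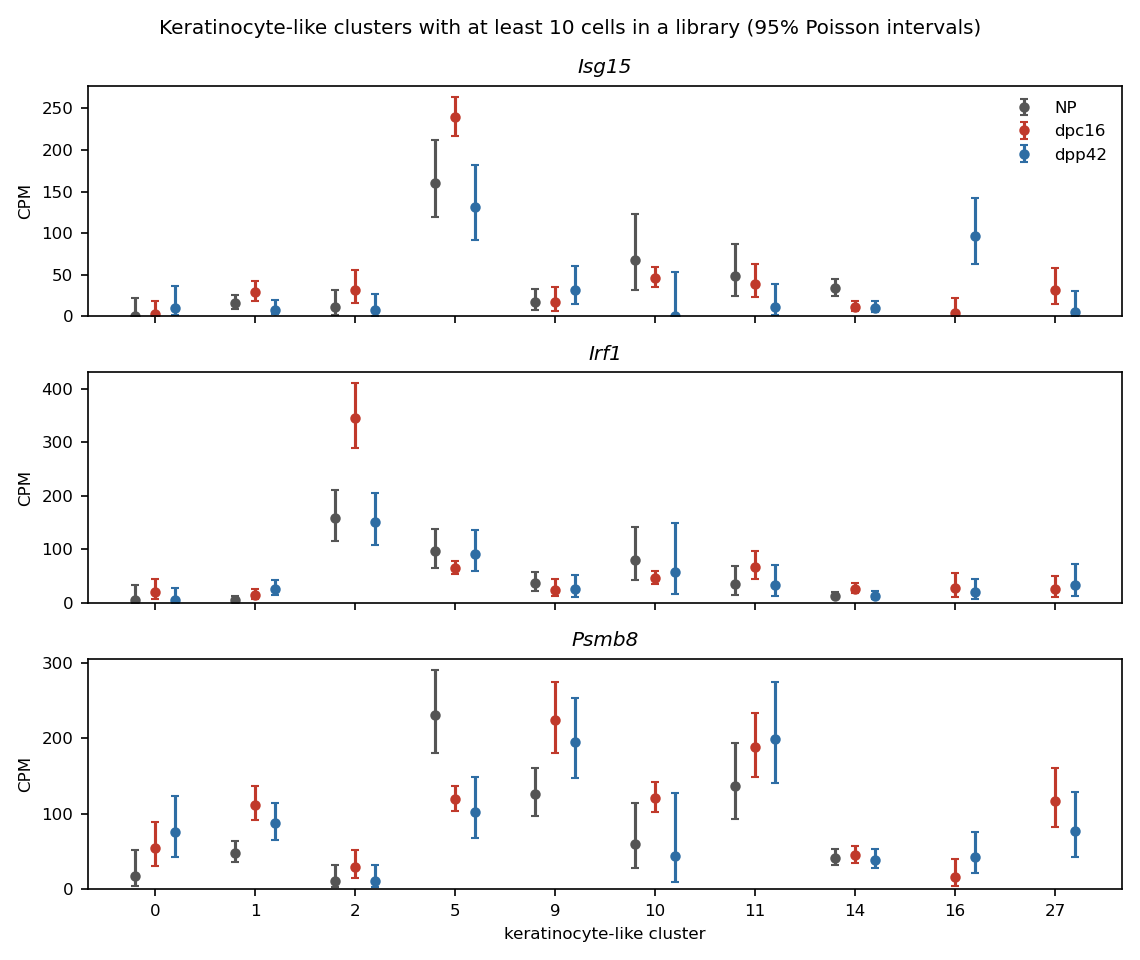
CPM of Isg15, Irf1 and Psmb8 in keratinocyte-like clusters with at least 10 cells of a library, with exact Poisson 95% intervals. Isg15 is highest in cluster 5 (161, 240 and 132 CPM in NP, dpc16 and dpp42), and Irf1 in cluster 2 (158, 346 and 151 CPM).

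MHC class II transcripts belonged almost wholly to immune-like cells. That class made up 1.63% of the NP library, 4.44% of dpc16 and 1.39% of dpp42 by cells, and held 92.6% (91.8 to 93.4), 91.7% (91.4 to 92.0) and 89.3% (88.0 to 90.5) of all UMIs of the 7 class II members. With classes drawn from marker UMIs without clusters, the NP and dpc16 shares were 75.6 and 72.3%. In clusters 15 and 29, led by class II genes and, in cluster 29, the Langerhans cell gene Cd207, the 7 members summed to 71018 CPM in 13 NP cells, 70650 in 75 dpc16 cells and 65070 in 10 dpp42 cells. The macrophage-like cells of dpc16 had 14471 CPM. Cd74, the invariant chain that guards the class II groove, had 29669, 29580 and 28441 CPM in clusters 15 and 29. H2-DMa, which helps exchange the Cd74 fragment for peptide, had 728, 1190 and 1468 CPM there and was called higher in dpc16 and in dpp42 than in NP. Of its 50 dpp42 UMIs 27 lay in the 2 cells of cluster 29 and 16 in a single cell, and in cluster 15 alone dpp42 had 841 CPM (533 to 1262) and NP 789 (550 to 1097). Of all members measured in clusters 15 and 29, 2 of 19 were higher (Rsad2 and H2-DMa) and 1 lower (Isg15) in dpc16 over NP, against 5.72% and 9.82% of genes. The Rsad2 call rests on 1 dpc16 cell, with 44 of the 46 UMIs, and of the NP Isg15 UMIs 19 of 44 also lay in 1 cell. For dpp42 over NP 2 of 11 were higher (H2-D1 and H2-DMa) and 1 lower (Isg15), against 8.95% and 10.3%. For dpp42 over dpc16 0 of 20 were higher and 1 lower (Rsad2), against 7.57% and 5.51%. Ctss, the protease cathepsin S that trims the invariant chain, had 55 of 55 UMIs of NP, 614 of 665 of dpc16 and 44 of 48 of dpp42 in immune-like cells. The chains H2-Aa and H2-Ab1 were within 1.5-fold among the 3 libraries.

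CIITA transcripts themselves were scarce. All cells together held 0 UMIs of Ciita in NP, 9 in dpc16 and 3 in dpp42. Of the dpc16 UMIs 8 came from clusters 15 and 29, and 2 of the dpp42 UMIs from lymphatic endothelium-like cells. A count of 0 allows up to 3 counts, so Ciita was not detectable in NP at this depth. Fibroblast-like and keratinocyte-like cells had no Ciita UMI in any library.

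Outside immune-like cells, class II levels were low, and several depended on cells that also held immune-marker UMIs. The sum of H2-Aa, H2-Ab1, H2-Eb1, H2-DMa and Cd74 was 315, 358 and 324 CPM in lymphatic endothelium-like cells of NP, dpc16 and dpp42, and 8.27, 81.3 and 67.8 CPM in blood endothelium-like cells. Without cells that held 3 or more immune-marker UMIs, these sums changed little. They were 315, 365 and 324 CPM in lymphatic and 8.76, 80.8 and 68.7 CPM in blood endothelium-like cells. Keratinocyte-like cells had 50.3, 102 and 47.5 CPM, and 58.5, 65.0 and 38.4 CPM without cells that held 3 or more immune-marker UMIs. In those remaining keratinocyte-like cells the log2 ratio of dpc16 over NP was -0.12 for H2-Ab1 and -0.07 for Cd74, in place of 0.94 and 0.80, and H2-Eb1 was no longer called (0.64). Macrophage markers in keratinocyte-like cells summed to 3.99, 21.0 and 4.54 CPM. Fibroblast-like cells had 146, 143 and 50.4 CPM of the class II sum, and 40.2, 67.7 and 50.8 CPM without such cells. The NP value of H2-Ab1 in fibroblast-like cells, 57.9 CPM, came from 19 UMIs, and it lay on the other side of dpc16 without the richest cell (log2 ratio 1.26 in dpc16 over NP, in place of -0.97). Cells of the T and NK-like cluster 24, a type that in the mouse makes little class II, had 134, 105 and 224 CPM, from 3, 13 and 4 UMIs.

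Shares of cells with a class II UMI were highest in the deepest library in fibroblast-like and keratinocyte-like cells. They were 11.6, 24.2 and 11.5% in fibroblast-like cells of NP, dpc16 and dpp42, and 12.4, 25.6 and 12.6% in keratinocyte-like cells, at medians of 2650.5, 4038 and 2418.5, and of 3029, 4209 and 3191 UMIs. Thinned to 1000 UMIs they were 5.36, 8.41 and 4.92%, and 4.36, 5.87 and 3.81%. The 8, 24 and 5 T and NK-like cells had 37.5, 37.5 and 40.0%, at median depths of 2568.5, 3305.5 and 3539 UMIs. With so few cells, these shares cannot show how much of the other classes' shares is background. Lymphatic endothelium-like cells had 42.1, 36.9 and 42.4%. Their class II sum without Ciita and Ctss was 315, 358 and 324 CPM, beside 134, 105 and 224 CPM in T and NK-like cells. The lymphatic sums rest on 21, 264 and 48 UMIs, and in dpc16 a single cell held 22 of 85 H2-Ab1 UMIs. The part of background RNA in these values was not tested.

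**Figure D5:**
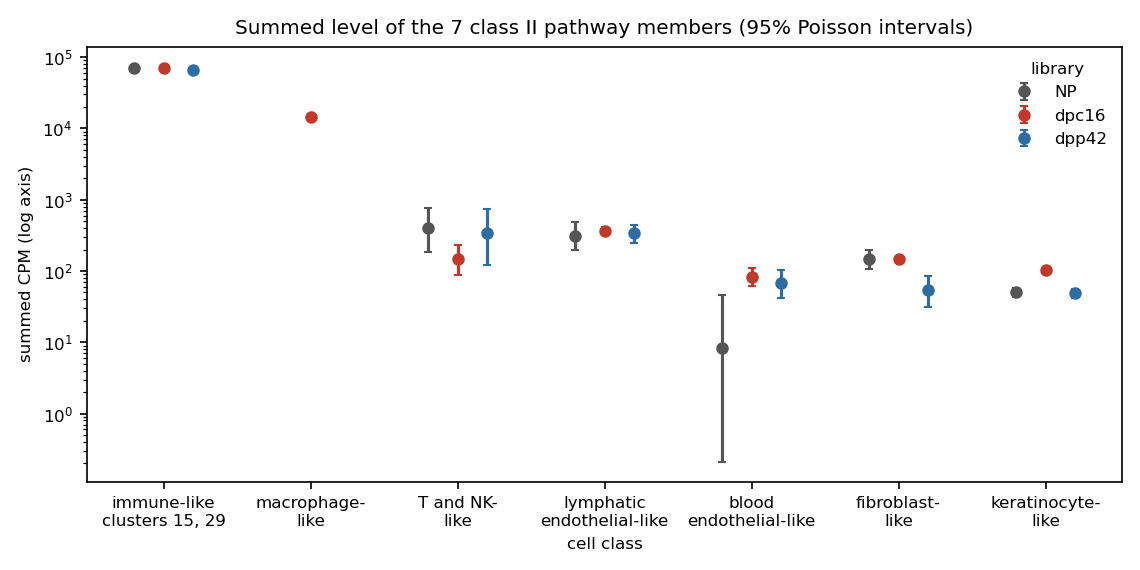
Summed CPM of the 7 class II members by class and library, on a log axis, with exact Poisson 95% intervals. Clusters 15 and 29 lie at 71018, 70650 and 65070 CPM in NP, dpc16 and dpp42, and lymphatic endothelium-like cells at 315, 364 and 337.

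Immune-like cells of dpc16 held an interferon effector signal in few cells. Rsad2 had 362 UMIs (498 CPM) in 21 of 162 dpc16 cells and none in 21 NP and 15 dpp42 cells. Against a floor of 3 counts in the other library, its dpc16 level was at least 12.6-fold higher than NP, and its dpp42 level was at least 8.63-fold lower than dpc16. Ifit1 had 225 UMIs (310 CPM) in 16 dpc16 cells, 2 UMIs in NP, a ratio of 11.8 (3.22 to 97.8), and 0 in dpp42. Of the dpc16 UMIs, 316 of Rsad2 and 200 of Ifit1 lay in the macrophage-like cluster 31, a cluster with no cell in NP or dpp42. There 13 of 63 cells had at least 3 of the 6 core effectors, and 1 cell held 123 of the 798 core UMIs. NP and dpp42 offer no such cells for comparison, so the values of the immune-like class set different cell mixes side by side.

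Isg15 went the other way over the immune-like class, with 632 CPM in NP, 388 in dpc16 and 154 in dpp42, from 48, 282 and 8 UMIs. The richest NP cell held 39.6% of its UMIs, and without the richest cell of each library the log2 ratio of dpc16 over NP was -0.35 in place of -0.71, and 0.14 with cells thinned to 1000 UMIs. Of 27 members measured in dpc16 over NP 3 were higher (Ifit1, Ifitm3 and Rsad2) and Isg15 was lower, against 5.10% and 8.73% of all genes. In dpp42 over NP, 1 of 11 was higher (H2-DMa, a call that rests largely on the 2 cells of cluster 29) and Isg15 lower, against 7.86% and 8.55%. In dpp42 over dpc16 0 of 27 were higher and 4 lower (Ifit1, Ifitm3, Isg15 and Rsad2), against 7.96% and 4.71%. The median log2 ratio in dpc16 over NP was 0.21 for the members and -0.15 for all genes. MHC class I of immune-like cells summed to 6738, 7723 and 8316 CPM in NP, dpc16 and dpp42, and to 10138 CPM in the macrophage-like cells. The NP and dpp42 values rest on 21 and 15 cells.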

How the data were processed

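Droplet single-cell counts (10x, version 2 chemistry per the labels) were deposited by the authors as unnormalised UMI counts per gene and barcode, made with Cell Ranger 2.2.0 on mm10 (GRCm38), per the submitters' processing notes. Barcodes with under 200 genes or over 10% mitochondrial UMIs were left out, and no doublet caller was run. After scaling to 10000 UMIs per cell, 2000 variable genes without the members and related genes gave 30 components, 15 neighbours and Leiden clusters (resolution 1, seed 0). Clusters were named from 16 marker lists. UMIs were summed per class and library. Because each group is 1 library, genes were called by size (at least 1.5-fold with an exact conditional binomial 95% interval that excludes 1), which is no test of the groups. Log2 ratios carry 0.5 UMI added to each count. All members are reported. Related genes named come from the 5 highest and 5 lowest called per comparison in fibroblast-like and keratinocyte-like cells, plus receptors, Nlrc5 and constitutive proteasome genes; not every gene that this rule covers is reported here. The members and lists were chosen with earlier results of these data known. Near-identical Ifit, Ifitm, Gbp and H2 genes can share reads. Alternatives covered filters, clustering, centring, cluster weights, thinning and the fold. With clusters weighted equally no interval was computed, so a call there rested on the 1.5-fold size alone. Tools were Python 3.11.15, scanpy 1.11.5, numpy 2.4.6, scipy 1.17.1 and pandas 2.3.3.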

Additional observations from a re-analysis of the deposited data

Results flagged for a closer look

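Several members were called in opposite directions in different cell classes of the same comparison. None of these differences between classes was tested, since each class has 1 library per group. In dpc16 over NP, the log2 ratio of Irf1 was 0.77 in keratinocyte-like cells, -0.78 in fibroblast-like cells and -0.67 in endothelium-like cells. Isg15 had 1.10 in keratinocyte-like cells, -1.17 in endothelium-like cells and -0.71 in immune-like cells. Ifit1 had 3.24 in immune-like and -2.37 in endothelium-like cells, and Rsad2 had 6.25 and -2.41. The immune-like values used 2 and 0 NP UMIs, so their size depends on the 0.5 UMI added. The ratio for Ifit1 was 11.8 (3.22 to 97.8), and Rsad2 was at least 12.6-fold higher in dpc16 than in NP. H2-Ab1 had 0.94 in keratinocyte-like and -0.97 in fibroblast-like cells. In dpp42 over dpc16, Ifit1 had 2.61 in endothelium-like and -5.01 in immune-like cells, and Rsad2 had 1.58 and -5.70. With 0 dpp42 UMIs of both in immune-like cells those values are likewise set by the 0.5 UMI added, and against a floor of 3 counts dpp42 was at least 5.36-fold lower for Ifit1 and at least 8.63-fold lower for Rsad2. Isg15 had 1.54 in endothelium-like cells, -1.45 in keratinocyte-like cells and -1.25 in immune-like cells.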

How the results depend on the processing

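No paired analysis was possible because each group has 1 library. Over all alternatives, of 266 values of summaries 225 kept their call or size, 34 moved and 7 reversed. Of 2722 values of single members, 2477 kept direction and call, 155 lost the call, 74 gained one and 16 reversed. For those below the cause was not tested. Members called in fibroblast-like cells numbered 4 for dpc16 over NP, and 1 after thinning to 1000 UMIs. For dpp42 they numbered 8 over NP and 16 over dpc16, and 4 and 7 after thinning. A fold of 2 gave 2 in dpc16 over NP and 4 in dpp42 over NP, and clusters weighted equally gave 12 in dpc16 over NP. Centring on the median of all genes gave 4 in dpc16 over NP and 11 in dpp42 over dpc16, and at most 5% mitochondrial UMIs gave 5 and 10. In endothelium-like cells thinning gave 3 in dpc16 over NP and 7 in dpp42 over dpc16. There dpp42 over NP gave 4 with equal weights, 0 at a fold of 2 and 1 without the richest cell, when Ifit2 was called (1.93). In keratinocyte-like cells dpc16 over NP gave 4 with classes from marker UMIs, 4 with equal weights, 3 after thinning and 3 at a fold of 2. Their dpp42 over NP gave 4, 2, 3 with no minimum beyond 1 UMI, 0 at a fold of 2, 1 with all variable genes, 0 without the richest cell and 2 without immune-marker cells. Their dpp42 over dpc16 gave 2 after thinning and 3 at a fold of 2. In immune-like cells equal weights gave 12 in dpc16 over NP. Counts with equal weights use no interval, a looser rule than the main one.

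Reversed log2 ratios in fibroblast-like cells were those of H2-Ab1 in dpc16 over NP (1.72 with at most 5% mitochondrial UMIs, 0.85 with marker-UMI classes, 0.02 thinned, 1.26 without the richest cell and 0.59 without immune-marker cells) and in dpp42 over NP (1.12, 0.05 and 0.40 for the first and the last pair of these). Cd74 in dpc16 over NP was -0.13 at resolution 2 and -0.11 with all variable genes. Elsewhere these were Ifitm3 (-0.08, equal weights) and Isg15 (0.14, thinned) of immune-like cells in dpc16 over NP, H2-Ab1 (-0.12) and Cd74 (-0.07) of keratinocyte-like cells in dpc16 over NP without immune-marker cells, H2-Eb1 (0.48, thinned) of keratinocyte-like cells in dpp42 over dpc16, and Cd74 (0.07) in dpp42 over dpc16 with the blood cluster alone. Thinned shares of cells with a class II UMI were 5.36, 8.41 and 4.92% (fibroblast-like, in NP, dpc16 and dpp42), 4.36, 5.87 and 3.81% (keratinocyte-like), 14.2 and 9.84% (endothelium-like, dpc16 and dpp42) and 75.9% (immune-like, dpc16), and 22.95% in keratinocyte-like dpc16 cells without immune-marker cells. With marker-UMI classes immune-like cells held 75.6 and 72.3% of class II UMIs in NP and dpc16. Leaving out the richest cell, immune-marker cells or fibroblast-like cluster 6, and the blood cluster alone, were chosen after seeing the data. Depth limits members under 10 CPM, and NP and dpp42 have few fibroblast-like, endothelium-like and immune-like cells.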
